A study of Mus musculus with 6 samples.

Results

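The genes described here are 43 splicing regulators of the mouse ovary: 8 classical SR proteins, 6 SR-related proteins, 17 heterogeneous nuclear ribonucleoproteins (hnRNPs) and 12 other regulators of the PTB, MBNL, CELF, ESRP, RBFOX, STAR and RBM families. They were taken by symbol from a fixed list, and each symbol matched exactly 1 of the 47122 gene models in the deposited table. All 43 passed a filter of at least 1 FPKM (fragments scaled by gene length and library size) in at least 3 of the 6 libraries, as did 14589 gene models in all. The libraries are labelled as ovary, taken from newborn mice at 1 day post partum (dpp). A description field of all 6 also mentions granulosa cells, without saying that any were isolated, and markers of oocytes, epithelium, stroma and endothelium were detected in each library. There were 3 libraries labelled WT and 3 labelled BCAS2 cKO, in which Bcas2, a gene of the spliceosome, was knocked out in oocytes. The sources used here give no Cre driver, deleted exons, strain or pooling of animals. Since nothing ties a library to its own animal, the p-values reflect spread between libraries that may be technical.

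An SR protein carries an RNA recognition motif and a tail rich in arginine and serine; it binds exonic enhancers and helps to recruit the core spliceosome to nearby splice sites. The hnRNPs coat nascent transcripts, and many of them silence splice sites, often against the action of SR proteins, so that the balance of both families sets the choice of alternative exons. PTB, MBNL, CELF, ESRP and RBFOX proteins add control that differs between tissues and stages. Many of these genes also control their own transcripts through exons or introns that lead to nonsense-mediated decay (NMD). The study asks how loss of a spliceosome subunit in oocytes acts on meiosis through alternative splicing. Gene totals such as these measure the supply of regulator transcripts and not exon choice.

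The sequences that follow are the 150 bases before the annotated transcription start of 4 members, from RefSeq (GRCm38.p6), 5′ to 3′ on the strand of the gene, with every CG dinucleotide in capitals. They are shown as context for 2 pairs of genes, and no link between sequence and level was tested. Srsf5 and Srsf4 were the most and the least abundant SR transcripts, and Ptbp1 and Ptbp2 are paralogues at similar levels. The windows are chr12:80945349-80945498 (plus strand) for Srsf5, chr4:131873487-131873636 (plus) for Srsf4, chr10:79854282-79854431 (plus) for Ptbp1 and chr3:119783389-119783538 (minus) for Ptbp2.
Srsf5: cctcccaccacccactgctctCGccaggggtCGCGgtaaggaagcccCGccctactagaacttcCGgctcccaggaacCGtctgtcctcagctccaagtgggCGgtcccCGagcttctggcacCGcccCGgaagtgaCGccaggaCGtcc
Srsf4: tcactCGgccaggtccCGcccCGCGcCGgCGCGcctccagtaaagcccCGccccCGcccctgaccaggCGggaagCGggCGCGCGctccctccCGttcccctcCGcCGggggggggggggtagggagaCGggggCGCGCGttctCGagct
Ptbp1: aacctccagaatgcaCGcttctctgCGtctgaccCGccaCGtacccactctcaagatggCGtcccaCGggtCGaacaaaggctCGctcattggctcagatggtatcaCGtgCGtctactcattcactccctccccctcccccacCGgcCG
Ptbp2: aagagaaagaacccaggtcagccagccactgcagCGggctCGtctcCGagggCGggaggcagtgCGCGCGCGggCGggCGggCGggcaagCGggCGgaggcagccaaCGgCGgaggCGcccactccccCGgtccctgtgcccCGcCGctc
The stretches hold 12 CG dinucleotides for Srsf5, 22 for Srsf4, 12 for Ptbp1 and 19 for Ptbp2.

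Upstream sequence was found for 38 of the 43 members. In the 250 bases before the start, they held a median of 23 CG dinucleotides, from 1 to 46, against 16 over the 10501 tested genes with an entry and 6 over all 27025 entries. The GC box GGGCGG, searched on both strands, was in 26 of the 38 windows (68.4%), against 59.4% of tested genes and 32.9% of all entries. The CCAAT box CCAAT, searched likewise, was in 20 (52.6%), against 36.8% and 34.5%. The TATA motif TATAAA was in 5 (13.2%), against 6.16% and 13.0%. In these windows of the 4 genes printed above, GGGCGG occurred for Srsf5, Srsf4 and Ptbp2 and CCAAT for Ptbp1.

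The regulator genes were abundant in the newborn ovary. Of the 43, 38 lay above the median level of all tested genes, and 24 lay in their top 10%. The median level was 52.1 FPKM, against 8.65 FPKM over all tested genes. Recovered reads behind a member ran from 156, for Esrp2 in WT replicate 1, to 20486. At the top stood Hnrnpa1, which binds splicing silencers, at 236, 220.5 and 243 FPKM in WT replicates 1, 2 and 3 and 211, 206 and 230.0 FPKM in cKO replicates 1, 2 and 3. Its paralogue Hnrnpa3 was at only 19.4 to 27.0 FPKM. Hnrnpk, a poly(C)-binding hnRNP, followed at 187 to 218 FPKM, then Srsf5, an SR protein, at 177 to 219 FPKM. At the bottom stood Esrp2 (2.20 to 3.31 FPKM), Rbfox2 (2.09 to 4.40 FPKM) and Celf2 (2.82 to 3.35 FPKM).

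**Figure D1:**
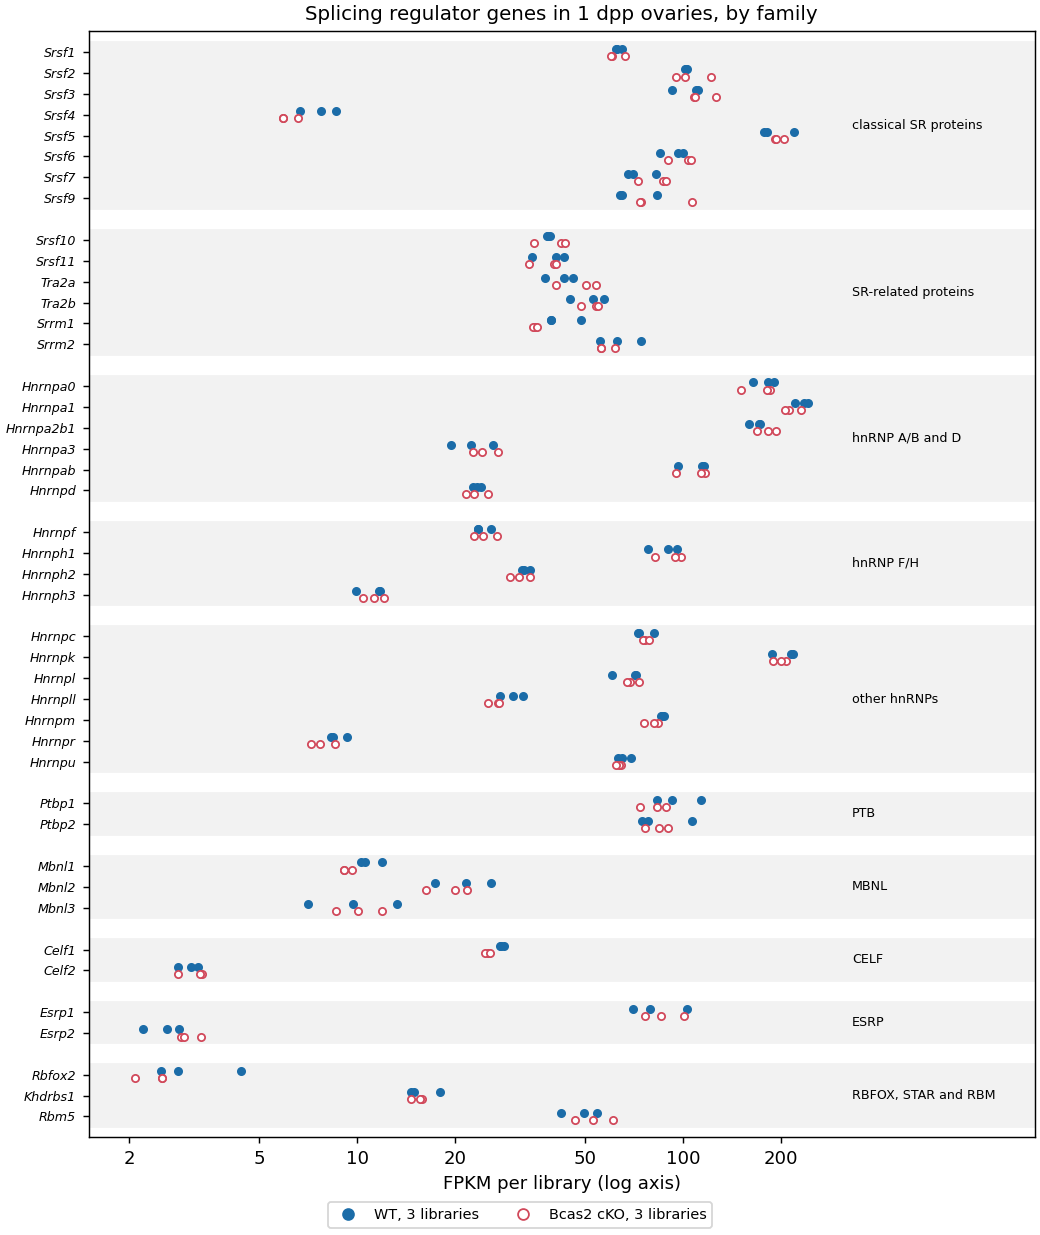
FPKM of each regulator gene in every library on a log axis, grouped by family, with filled points for the 3 WT libraries and open points for the 3 Bcas2 cKO libraries. Levels spanned from 2.09 FPKM (Rbfox2 in cKO replicate 2) to 243 FPKM (Hnrnpa1 in WT replicate 3), and for 36 genes the filled and open points overlapped.

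Levels of the members differed little between libraries. The highest of the 6 values was under 1.5 times the lowest for 37 members and 1.5 times or more for 6. Over 10 FPKM this held for 34 of 38 members, against 68.7% of the 6701 tested genes at such a level. Hnrnpu, a nuclear scaffold hnRNP, varied least, with a coefficient of variation of 3.72% over the 6 libraries. Its values of 63.2, 65.2 and 69.2 FPKM in WT against 64.7, 63.8 and 62.5 FPKM in cKO overlapped. Srsf1, the founding SR protein, came next at 3.94%, with 62.2 to 65.0 FPKM in WT against 60.1 to 66.3 FPKM in cKO.

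Against this background the 2 groups were compared gene by gene. By limma, no member had an adjusted p under 0.05 (adjusted p from 0.955 to 0.996), and over all tested genes 0 did (0%). At an unadjusted p under 0.05 there was 1 member, Srrm1 (2.33%), against 443 tested genes or 3.04%. By group means, 21 members were higher in cKO and 22 lower, with a median log2 fold change of −0.01 for the members and −0.01 for all tested genes. Rescaled to TPM, in which the values of every library have the same sum, the split became 9 higher and 34 lower, with medians of −0.09 for the members and −0.08 for all tested genes. The summed level of the 43 genes was 2830 ± 42.9 FPKM in WT against 2830 ± 107 FPKM in cKO (SD, n = 3 each), and the groups overlapped. As a share of the summed FPKM of all gene models, however, the 43 genes made up 0.834%, 0.783% and 0.781% in WT against 0.770%, 0.731% and 0.764% in cKO, without overlap. The sums over all gene models, by which these shares were divided, differed between libraries. They were 343995, 355630 and 362958 FPKM in WT against 363209, 403703 and 358940 FPKM in cKO. Bcas2 itself was at 54.5, 37.5 and 35.7 FPKM in WT against 18.9, 21.9 and 18.3 FPKM in cKO, without overlap. Its log2 fold change was −1.05 (SE 0.17, unadjusted p = 0.000502, adjusted p = 0.955 in limma). The adjusted test thus did not call the knocked-out gene either. The absence of calls among the members is therefore no evidence that their levels were unchanged.

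The intervals give the range of change in each gene's level in bulk ovary RNA that the spread between libraries allows. Since that spread may be technical, they do not bound a difference between animals. They also leave out the choice of scaling, which under TPM moved the median of all tested genes from −0.01 to −0.08. Each interval holds for 1 gene and is not adjusted for the number of genes. A change within oocytes, where Bcas2 was knocked out, is not bounded by them. A log2 limit of 0.5 is a 1.41-fold change of FPKM + 1 either way, and a larger change of FPKM itself for genes at low levels. The 95% interval of the log2 fold change lay wholly within 0.5 of 0 for 34 of the 43 members (79.1%) and for 54.3% of all tested genes. Among genes over 10 FPKM the shares were 32 of 38 members and 67.8% of genes. It reached 0.27 to either side at the median member and 0.35 at the median tested gene. The 9 members with a wider or shifted interval were Srsf4, Srsf9, Tra2a, Srrm1, Ptbp1, Mbnl2, Mbnl3, Esrp2 and Rbfox2. For all 17 hnRNP genes the interval stayed within 0.5.

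**Figure D2:**
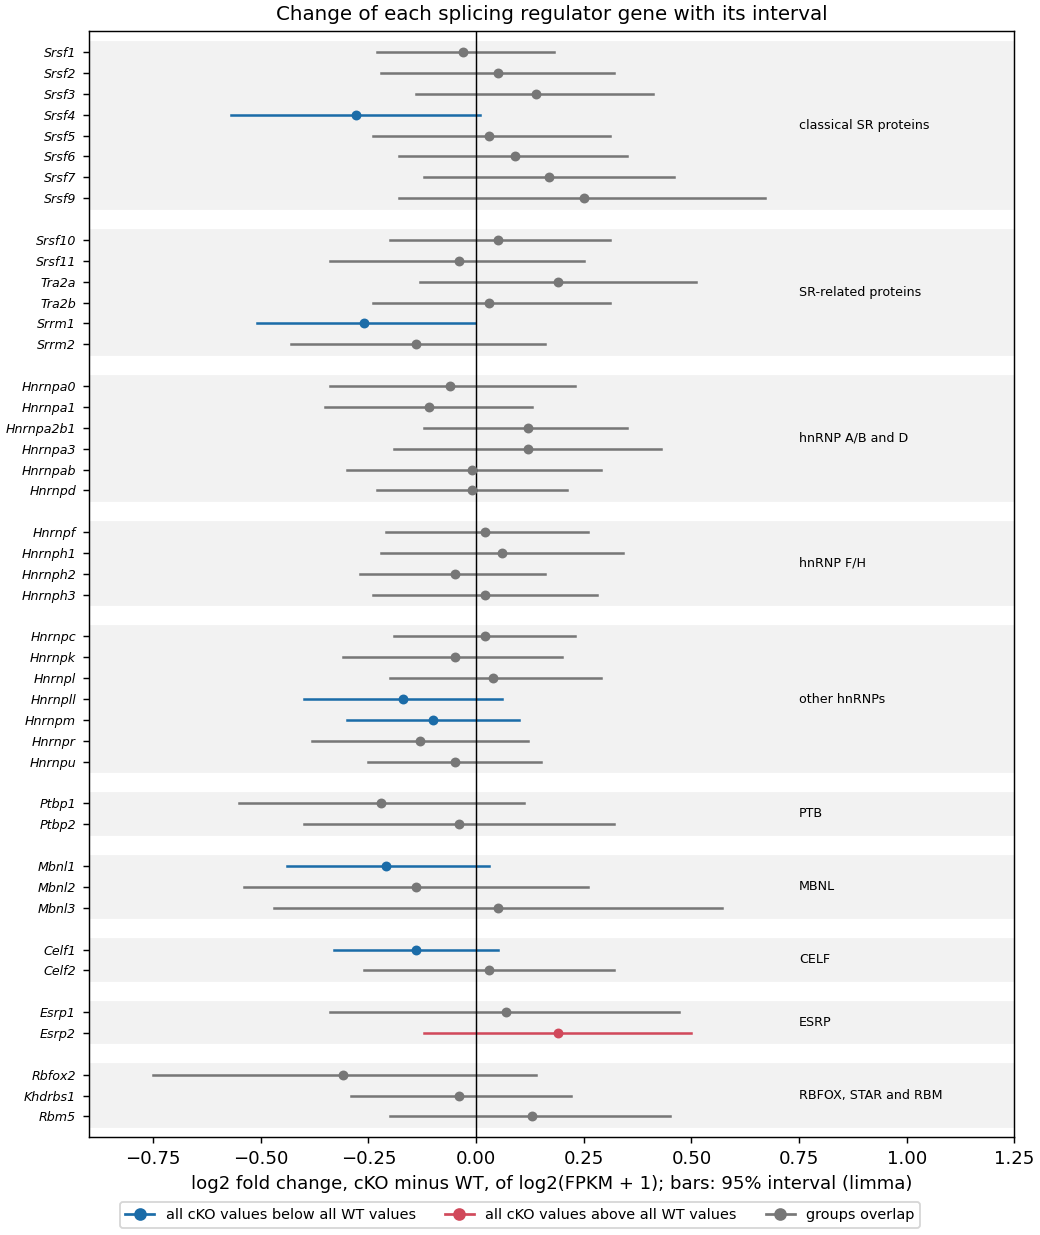
Log2 fold change (cKO minus WT) of each regulator gene on the log2(FPKM + 1) scale, with its 95% interval from limma; colours mark the 6 genes with all cKO values below all WT values and the 1 gene with all above. Each interval but that of Srrm1 included 0, and the estimates ran from −0.31 (Rbfox2) to 0.25 (Srsf9).

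The groups did not overlap for 7 members (16.3%), against 7.88% of tested genes. Of these, 6 were lower in cKO (14.0%, against 3.67% of tested genes) and 1 was higher (2.33%, against 4.20%). None of the 7 passed the test over all genes, so the values are given as a description.

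Srsf4, a long-tailed SR protein, was the least abundant of the SR genes. Its gene model is on chromosome 4 (131600841 to 131629036, plus strand; GRCm39, as are all gene positions here). Its level was 8.64, 7.76 and 6.68 FPKM in WT replicates 1, 2 and 3 and 5.91, 5.92 and 6.60 FPKM in cKO replicates 1, 2 and 3. WT replicate 3 and cKO replicate 3 nearly met. The log2 fold change was −0.28 (SE 0.12, 95% interval −0.57 to 0.01, adjusted p = 0.955 in limma).

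Srrm1 encodes a splicing coactivator that bridges SR proteins and the spliceosome (chromosome 4, 135047795 to 135080787, minus strand). It stood at 48.7, 39.5 and 39.3 FPKM in WT against 35.3, 34.8 and 35.6 FPKM in cKO. The 3 cKO values were almost the same, and WT replicate 1 lay above the other two WT values. The log2 fold change was −0.26 (SE 0.11, 95% interval −0.51 to −0.0016, unadjusted p = 0.0489, adjusted p = 0.955), and −0.16 without WT replicate 1. Its relative Srrm2, a scaffold of nuclear speckles, showed 74.6, 62.7 and 55.8 FPKM in WT against 61.9, 56.2 and 56.0 FPKM in cKO, with overlap.

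Mbnl1 and Celf1 are often described as antagonists in developmental splicing. Mbnl1 (chromosome 3, 60380209 to 60537171, plus strand) was at 10.6, 10.3 and 11.9 FPKM in WT against 9.13, 9.13 and 9.68 FPKM in cKO. Celf1 (chromosome 2, 90770604 to 90849842, plus strand) was at 28.2, 27.5 and 27.6 FPKM in WT against 25.1, 24.7 and 25.6 FPKM in cKO. Both were thus lower in every cKO library than in any WT library, by −0.21 (SE 0.10) for Mbnl1 and −0.14 (SE 0.08) for Celf1 on the log2 scale. Their intervals were −0.44 to 0.03 and −0.33 to 0.05, and the adjusted p was 0.955 for each. Celf1 had among the smallest spreads within groups, with an SD of 0.393 FPKM in WT against 0.486 FPKM in cKO.

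Hnrnpll, a relative of Hnrnpl known for regulating Ptprc exons in lymphocytes, lies on chromosome 17 (80336916 to 80369697, minus strand). It was at 32.3, 27.4 and 30.1 FPKM in WT against 27.0, 25.2 and 27.2 FPKM in cKO, so that WT replicate 2 and cKO replicate 3 nearly met. Hnrnpm (chromosome 17, 33865207 to 33904432, minus strand) was at 86.1, 85.6 and 87.5 FPKM in WT against 76.1, 84.1 and 81.6 FPKM in cKO. The log2 fold changes were −0.17 (SE 0.10) and −0.10 (SE 0.09). Without WT replicate 1 that of Hnrnpll was −0.11, and without cKO replicate 1 that of Hnrnpm was −0.06. For these 2 genes the separation was absent in read shares recovered from the FPKM values, while Srsf4, Srrm1, Mbnl1, Celf1 and Esrp2 kept it.

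Esrp2, an epithelial splicing regulator, was the member that was higher without overlap (chromosome 8, 106856658 to 106863825, minus strand). Its values were 2.20, 2.84 and 2.61 FPKM in WT against 2.88, 2.94 and 3.31 FPKM in cKO. The lowest cKO value exceeded the highest WT value only narrowly, and the log2 fold change was 0.19 (SE 0.13, 95% interval −0.12 to 0.50, adjusted p = 0.955). It was 0.12 without WT replicate 1, and rescaled to TPM the groups overlapped. Its model overlaps Nfatc3 on the opposite strand, a gene with 1852 recovered reads per library against 204 for Esrp2, and the sources used here do not say whether the counting used strand. All 8 epithelial marker genes, such as Krt8 and Epcam, also had a higher mean in cKO. Their summed level was 255, 674 and 589 FPKM in WT replicates 1, 2 and 3 and 561 to 679 FPKM in cKO. Of these markers only Cldn3 was higher without overlap, at 0.591 to 1.09 FPKM in WT against 2.63 to 4.15 FPKM in cKO (adjusted p = 0.883 in limma). The part of the epithelial markers in the Esrp2 values was not tested.

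Of the 8 classical SR genes 6 had a higher mean in cKO, with a median log2 fold change of 0.07, and 0 passed the test. That median was 0.14 without cKO replicate 3 and 0.04 without WT replicate 3. Srsf9 showed the largest estimate, 0.25 (SE 0.18), from 64.1, 65.2 and 83.4 FPKM in WT against 74.4, 107.0 and 73.6 FPKM in cKO. That difference rested on cKO replicate 2: leaving that library out gave 0.07. Srsf3 and Srsf7, 2 small SR proteins that also take part in mRNA export, were at 92.7 to 111.0 and 67.9 to 82.5 FPKM in WT against 109 to 126 and 73.0 to 89.0 FPKM in cKO. Under TPM the median of the classical SR genes was −0.01, beside −0.08 for all tested genes, so it lay above the median of all genes on both scales. Srsf2 and Srsf6, an SR protein of broad exon targets and a relative of Srsf4, overlapped as well, with log2 fold changes of 0.05 and 0.09.

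The SR-related genes were split 3 and 3, with a median of −0.0041. Tra2a and Tra2b, homologues of the fly sex determination factor transformer 2, were at 37.7, 45.9 and 43.1 FPKM and 44.9, 52.8 and 57.1 FPKM in WT. In cKO they were at 54.2, 50.4 and 40.7 FPKM and at 54.1, 55.1 and 48.8 FPKM. Tra2b was the more abundant in each library but cKO replicate 1, where the 2 genes were equal within 1 FPKM. Srsf10, which represses splicing when dephosphorylated, and Srsf11 had log2 fold changes of 0.05 and −0.04.

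The hnRNP genes were the most even group. Of the 17, 7 had a higher and 10 a lower mean in cKO, with a median of −0.01 and a range from −0.17 (Hnrnpll) to 0.12 (Hnrnpa3). Hnrnpa2b1, a paralogue of Hnrnpa1, was at 159 to 172 FPKM in WT against 169 to 193 FPKM in cKO, whereas Hnrnpa1 was at 220.5 to 243 and 206 to 230.0 FPKM, so the means of these paralogues differed in opposite directions, with overlap in both. Hnrnpa0, Hnrnpab and Hnrnpd had estimates of −0.06, −0.01 and −0.01. In the G-tract-binding F/H group, Hnrnph1 was at 78.2 to 98.8 FPKM over the 6 libraries, Hnrnph2 at 29.5 to 34.0, Hnrnpf at 22.9 to 27.0 and Hnrnph3 at 9.93 to 12.1 FPKM, with estimates between −0.05 and 0.06. Hnrnpc, which keeps cryptic exons out of transcripts, Hnrnpl and Hnrnpr had estimates of 0.02, 0.04 and −0.13. Summed hnRNP transcripts exceeded summed SR and SR-related transcripts 1.43, 1.42 and 1.50 times in WT and 1.32, 1.33 and 1.49 times in cKO. The ratios of cKO replicates 1 and 2 lay below the WT range, and that of cKO replicate 3 within it.

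The paralogue pair Ptbp1 and Ptbp2 changed order between libraries. PTB proteins bind pyrimidine-rich tracts and mostly repress exons; Ptbp1 is found in most cell types, and Ptbp2 is known from neurons and from male germ cells. Ptbp1 was at 113, 92.5 and 83.4 FPKM in WT against 83.5, 74.1 and 88.8 FPKM in cKO. Ptbp2 was at 75.1, 78.4 and 107 FPKM in WT against 84.2, 89.8 and 76.3 FPKM in cKO. Per length, Ptbp1 was 1.51, 1.18 and 0.782 times Ptbp2 in WT and 0.992, 0.825 and 1.17 times in cKO, so that either gene could be the higher one within each group. The log2 fold changes were −0.22 (SE 0.14) and −0.04 (SE 0.15). The sum of both was 189, 171 and 190.0 FPKM in WT against 168, 164 and 165 FPKM in cKO, without overlap, a sum chosen after its values were seen.

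In the ESRP and CELF pairs, 1 member carried most of the transcripts. Esrp1 was 23.1 to 39.5 times as abundant as Esrp2 per length, and Celf1 7.36 to 10.01 times as abundant as Celf2. Among the MBNL genes Mbnl2 was the highest in the 6 libraries, at 25.7, 21.6 and 17.3 FPKM in WT against 20.1, 16.3 and 21.8 FPKM in cKO. Mbnl3 varied widely within WT, with 7.08, 13.3 and 9.71 FPKM against 10.1, 8.60 and 11.9 FPKM in cKO. Khdrbs1, the STAR protein Sam68, and Rbm5, an RNA-binding regulator of apoptosis genes, overlapped between groups with estimates of −0.04 and 0.13.

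Esrp1, which is expressed in germ cells as well as in epithelia, was at 79.4, 70.1 and 103 FPKM in WT against 85.6, 101 and 76.5 FPKM in cKO. Ptbp2 had the same 3 highest libraries in the same order, namely WT replicate 3, cKO replicate 2 and cKO replicate 1. The summed level of 8 oocyte markers (Ddx4, Dazl, Figla, Nobox, Sycp3, Zp3, Dppa3 and Gdf9), all of them detected, was 729.5, 781 and 1129 FPKM in WT against 975, 1126 and 863 FPKM in cKO, with these 3 libraries again at the top. Dppa3, at 338 to 565 FPKM, made up the largest part of that sum. Taken singly, Ddx4, Dazl, Sycp3 and Dppa3 were highest in these 3 libraries. Figla, Nobox, Zp3 and Gdf9 each had another library among their 3 highest. In bulk ovary RNA, fewer cells of a type and less RNA per cell cannot be told apart. The oocyte markers overlapped between groups, and their part in the Esrp1 and Ptbp2 values was not tested.

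WT replicate 1 stood apart in its endothelial, pericyte, muscle and stroma markers. On the leading axis of a principal component analysis over all tested genes (46.3% of variance) it lay at one end. All 6 endothelial markers, 5 of 5 tested pericyte and muscle markers and all 6 stroma markers were highest there: the summed endothelial level was 126 FPKM, against 46.7 and 30.5 FPKM in the other two WT libraries and 33.7 to 44.5 FPKM in cKO. WT replicate 1 was the highest library for only 3 of 7 pregranulosa markers and 2 of 5 tested macrophage markers. Of the 8 epithelial markers, 7 were lowest there. That library was the highest of the 6 for 13 members (30.2%) and for 27.6% of all tested genes. Those members were Rbfox2, Ptbp1, Mbnl2, Srrm1, Srrm2, Srsf4, Srsf5, Srsf11, Hnrnpk, Hnrnpll, Hnrnpr, Khdrbs1 and Celf1. Rbfox2, a regulator of mesenchymal and muscle exons, was at 4.40 FPKM in WT replicate 1, at 2.82 and 2.51 FPKM in the other two WT libraries and at 2.52, 2.09 and 2.52 FPKM in cKO. Its log2 fold change was −0.31 (SE 0.19) over all libraries and −0.12 without WT replicate 1. For Ptbp1 the estimate was −0.10 and for Mbnl2 −0.01 without that library, while for Mbnl1 it was −0.22 and for Celf1 −0.13. For Srsf5 it was 0.13 without that library and 0.03 over all libraries. The part of the endothelial, pericyte, muscle and stroma markers in the regulator values was not tested.

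**Figure D3:**
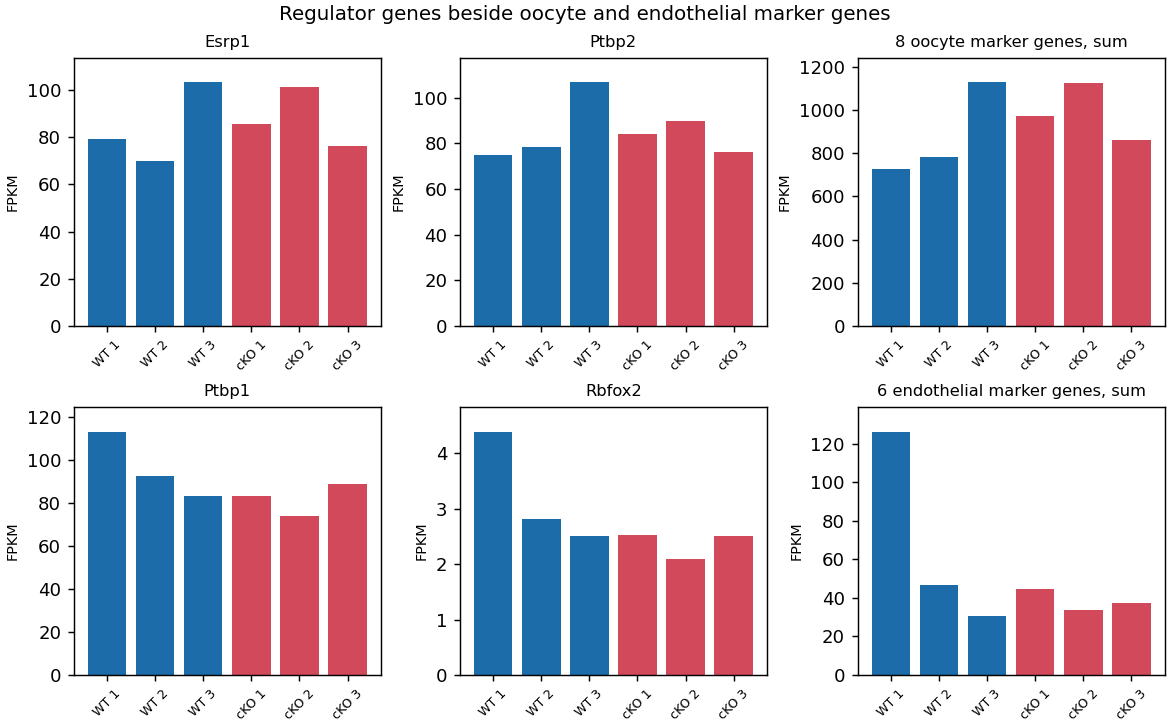
FPKM in each library of 4 regulator genes and summed FPKM of 8 oocyte and 6 endothelial marker genes; blue bars are WT and red bars Bcas2 cKO libraries, and all axes start at 0. Esrp1, Ptbp2 and the summed oocyte markers were highest in WT replicate 3 and next in cKO replicate 2, and Ptbp1, Rbfox2 and the summed endothelial markers were highest in WT replicate 1.

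At the other end, cKO replicate 2 was the highest library for 14 members (32.6%) and for 21.5% of tested genes. Among them were Srsf2, Srsf3, Srsf6, Srsf7 and Srsf9. The 6 erythroid markers summed to 13270 FPKM there, against 401 to 1203 FPKM in the other 5 libraries. Their part in the SR gene values was not tested.

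**Figure D4:**
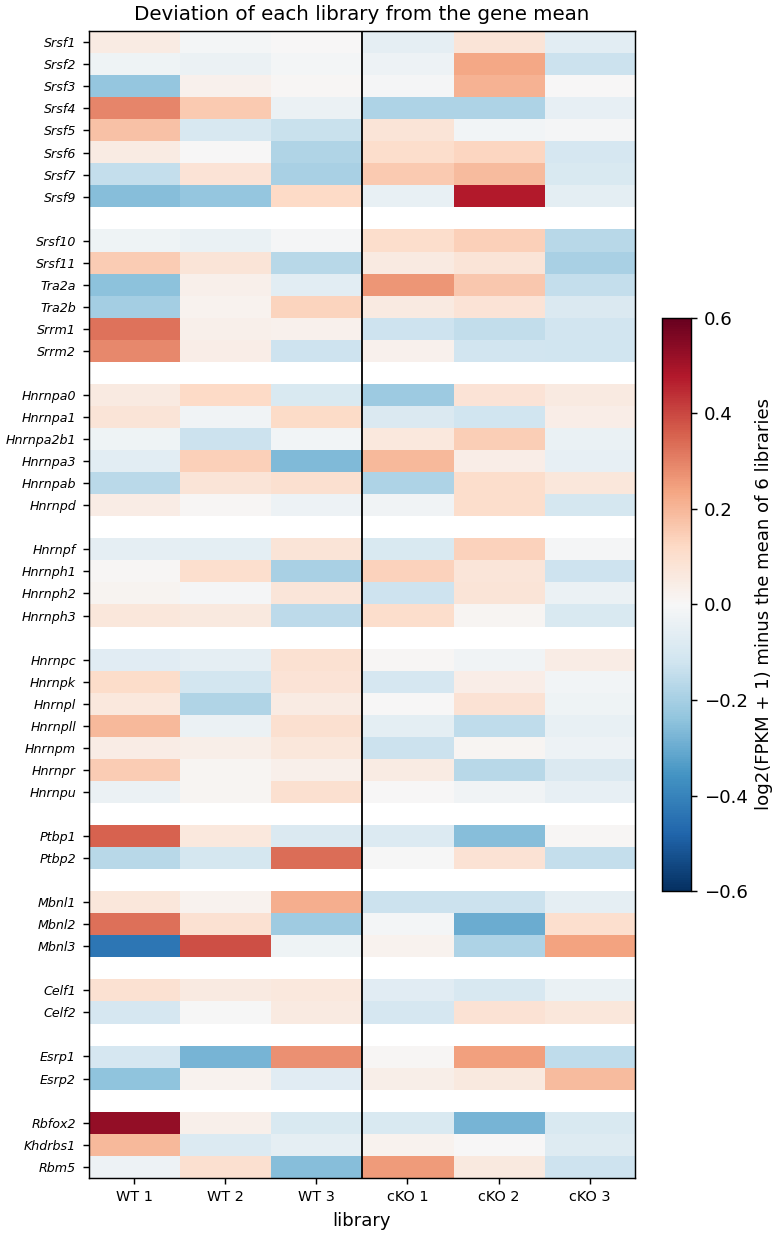
Deviation of each library from the mean of the 6 libraries for every regulator gene, as log2(FPKM + 1), with WT libraries left and cKO libraries right of the line. WT replicate 1 holds the highest value of 13 genes and cKO replicate 2 that of 14, and no family differs in colour as a block between the 2 sides.

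Further lists of splicing regulators outside the 43 were tested in the same fit. Of 11 tested genes of other SR and coactivator proteins, limma called 0 in either direction after adjustment, with 0 at an unadjusted p under 0.05 and a median log2 fold change of −0.03. Son, a speckle scaffold, was at 66.8 ± 6.63 FPKM in WT against 59.5 ± 4.14 FPKM in cKO, and Rbm25 at 35.2 ± 1.29 and 37.7 ± 2.29 FPKM (SD, n = 3 each). Of 19 other hnRNP and hnRNP-like genes 0 passed, also unadjusted, with a median of −0.01. In this list Safb, a matrix-attachment protein, was higher without overlap at 38.2 ± 0.704 and 41.8 ± 1.95 FPKM, and Khsrp, a KH-domain splicing and decay factor, was lower without overlap at 39.5 ± 0.876 and 36.1 ± 1.51 FPKM. Over all tested genes 4.20% were higher in cKO and 3.67% lower without overlap. Of 12 tested tissue-biased regulators 0 passed, also unadjusted, with a median of 0.03. Apart from the 2 genes named next, 1 was higher in cKO without overlap. The 2 with the smallest p were Khdrbs3, a relative of Sam68, at 6.92 ± 1.20 and 8.60 ± 1.67 FPKM, and Qk, the STAR protein quaking, at 28.8 ± 5.18 and 24.7 ± 1.15 FPKM.

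Kinases and import receptors decide whether SR proteins are active and nuclear. Of 12 tested genes of this list 0 passed over all genes, with 1 at an unadjusted p under 0.05 and a median log2 fold change of 0.03. Over all tested genes 3.04% had such a p, and 4.20% were higher in cKO without overlap. The 1 gene of the list was Clk1, a nuclear kinase that phosphorylates the arginine and serine tails of SR proteins. It was at 50.7, 57.2 and 57.8 FPKM in WT against 83.3, 70.3 and 65.0 FPKM in cKO, all cKO values above all WT values. The log2 fold change was 0.39 (SE 0.12, 95% interval 0.11 to 0.67, unadjusted p = 0.0143, adjusted p = 0.955 in limma). It ranged from 0.29 to 0.47 over the alternative settings. The other kinases, named after their values were seen, overlapped between groups. Clk4, the closest relative, was at 18.5, 19.6 and 15.5 FPKM in WT against 24.1, 18.9 and 18.2 FPKM in cKO. Clk2 and Clk3 had estimates of 0.04 and 0.05, and the cytoplasmic SR kinases Srpk1 and Srpk2 of 0.08 and 0.15. Tnpo1, an import receptor for hnRNP A1, was at 34.6 ± 1.99 FPKM in WT against 30.1 ± 4.24 FPKM in cKO (SD, n = 3 each).

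**Figure D5:**
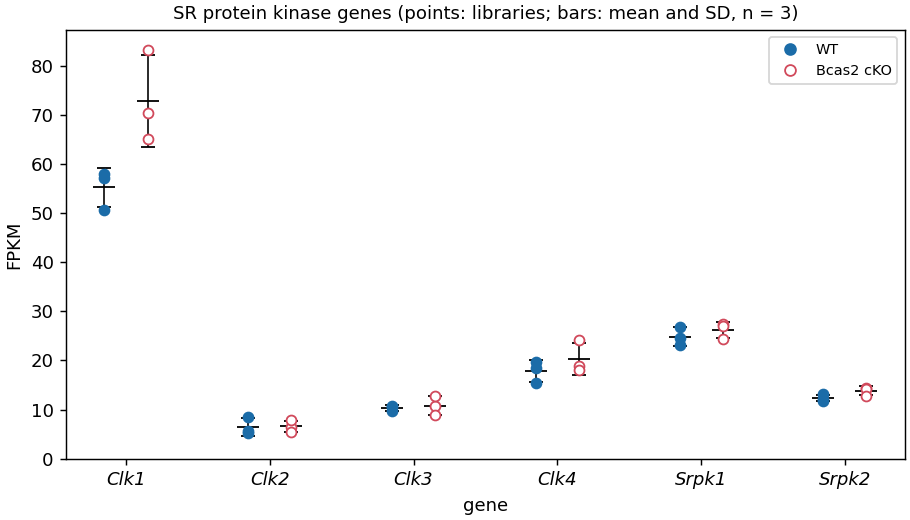
FPKM of 6 SR protein kinase genes in each library (filled points WT, open points Bcas2 cKO), with the mean and SD of each group (n = 3) as bars. For Clk1 the open points, from 65.0 to 83.3 FPKM, all lie above the filled points, from 50.7 to 57.8 FPKM, and for the other 5 genes the points overlap.

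Annotated transcripts of the members include many that are not translated in full. In GENCODE M21, matched by symbol, 27 of the 43 members (62.8%) had at least 1 transcript labelled as a target of nonsense-mediated decay, against 28.6% of the 12143 matched protein-coding genes tested. All 8 classical SR genes and both PTB genes had one, while Esrp1, Esrp2 and all 3 MBNL genes had none. A retained-intron transcript was annotated for 33 members (76.7%), against 58.8%. Members had a median of 10 annotated transcripts, against 5 for the protein-coding genes tested. Deposited gene totals pool productive transcripts with these, so a change in their proportions at an even total was not measured. Of the 43 gene models 18 overlap another model in the table, 14 of them one of at least 1 FPKM. Hnrnph3, with 529 recovered reads per library, overlaps Rufy2 with 672 on the opposite strand, and its level is therefore uncertain.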

How the data were processed

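RNA from 1 dpp ovaries was profiled in 3 WT and 3 Bcas2 cKO libraries, grouped by sample title; columns were matched by sample description. The authors deposited FPKM per gene model with gene length and GRCm39 coordinates. Per the submitters' processing notes, the tools named include HISAT2 2.0.5, and both mm10 and GRCm39 appear as builds. The sources used here give no counting tool, annotation or strand setting.

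FPKM times gene length gave whole multiples of 1 step per library (100% of values above 0 within 0.05 reads), which returned 16800421 to 19565275 reads per library. Values were tested as log2(FPKM + 1), so fold changes of low genes are understated, with limma 3.58.1 in R 4.3.3 (trend, two-sided, Benjamini-Hochberg over all 14589 genes with at least 1 FPKM in at least 3 of 6 libraries). The script was tested on simulated data. Members, families, lists and tests were chosen with earlier results of these data known. Any member may be named; of other lists the 2 genes with the smallest p; the other genes are markers, overlapping genes or named as chosen after their values were seen. Alternatives were a pseudocount of 0.1, no filter or 5 FPKM, TPM, median-of-ratios, quantile normalization, voom on recovered reads, a replicate block and leaving out each library.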

Additional observations from a re-analysis of the deposited data

How the results depend on the processing

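Under the 14 alternative settings, 0 members passed an adjusted p under 0.05, and over all genes 0 passed in each setting but 1, with 0 to 1 calls when single libraries were left out (1 without cKO replicate 2). The count of members at an unadjusted p under 0.05, 1 as reported, was 0 with a filter at 5 FPKM, voom, median-of-ratios scaling or quantile normalization, 3 under TPM and 0 to 2 when a library was left out (2 without WT replicate 3). Over all tested genes the share at this threshold was 3.01% under TPM and 7.24% without WT replicate 3, against 3.04% as reported. Of the 43 members 24 kept the sign of their log2 fold change in all settings that tested them. The median over members, −0.01 as reported, was 0.03 with voom, −0.09 under TPM and from −0.05 to 0.01 without single libraries. The 7 members without overlap became 9 to 13 when a library was left out. There were 13 without WT replicate 3 or without cKO replicate 3, where 27.0% and 23.0% of all tested genes did not overlap. Leaving out any other library gave 11.97% (without cKO replicate 2) to 17.34% (without WT replicate 2) of all tested genes. With all libraries that share was 7.88%, so it rose for all tested genes as well as for the members.

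TPM lowered the median of all tested genes from −0.01 to −0.08, and the family medians shifted with it: PTB (−0.21), CELF (−0.12), SR with SR-related (−0.04), classical SR (−0.01), hnRNP A/B and D (−0.09), F/H (−0.06), other hnRNP (−0.13), all hnRNP (−0.09) and the remaining regulators (−0.12). The hnRNP median was 0.02 with voom and −0.05 after quantile normalization, that of the remaining regulators −0.0045 with voom, and that of CELF −0.14 at 5 FPKM, where only Celf1 was tested. Without single libraries the medians ran from 0.04 to 0.14 for classical SR, −0.05 to 0.07 for SR-related, −0.0028 to 0.11 for both together, −0.03 to 0.05 for F/H, −0.17 to −0.10 for PTB, −0.22 to −0.03 for MBNL, −0.07 to −0.02 for CELF, 0.08 to 0.21 for ESRP, −0.09 to 0.05 for RBFOX, STAR and RBM, −0.07 to 0.05 for hnRNP A/B and D, −0.11 to −0.03 for other hnRNPs, −0.06 to −0.0049 for all hnRNPs and −0.09 to −0.02 for the remaining regulators; the cause was not tested. The replicate numbers do not name litters or days, so they were not read as pairs. Deviations of same-numbered libraries correlated at r = 0.22, 0.01 and −0.03 over genes, and those of differently numbered libraries at −0.34 to 0.32. With 3 libraries per group these deviations depend on each other, so the values cannot exclude pairing. With the replicate block 0 members had an unadjusted p under 0.05. Depth limits Esrp2 most, with 204 reads per library.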
